A study of Mus musculus with 6 samples.

Results

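The genes described here are 7 histone acetyltransferase genes (Ep300, Crebbp, Kat2a, Kat2b, Kat5, Kat6a and Kat7) and 2 genes of the BET bromodomain family (Brd2 and Brd3). They were chosen by name, and all 9 were found among the 27179 genes of the deposited count table and among the 13207 genes tested. Leukaemia cells that express green fluorescent protein were sorted from spleens after 3 days of panobinostat (3 libraries) or vehicle (3 libraries). Panobinostat is an inhibitor of histone deacetylases, the enzymes that remove acetyl groups from lysines. Both groups carry the same leukaemia, labelled A/E9a;NRASG12D;Ifnar1-/- on C57BL/6: a form of the AML1-ETO fusion oncogene, an activated NRAS and a loss of the type I interferon receptor subunit Ifnar1. The animals' age, the promoters that drive the oncogenes and the number of animals or clones are not given in the labels. Since no label ties a library to an animal of its own, the p-values below measure only how far these libraries spread, which may be technical.

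Lysine acetylation of histones is written by acetyltransferases, which take the acetyl group from acetyl-CoA, is read by bromodomain proteins and is erased by deacetylases. p300 (Ep300) and CBP (Crebbp) are large coactivators of enhancers, and p300 is known to acetylate AML1-ETO. GCN5 (Kat2a) and PCAF (Kat2b) are alternative catalytic subunits of the SAGA and ATAC complexes. TIP60 (Kat5), MOZ (Kat6a) and HBO1 (Kat7) belong to the MYST family, and MOZ is itself a partner in fusion genes of human acute myeloid leukaemia. BET proteins bind acetylated histones through paired bromodomains and couple them to transcription elongation, and drugs that displace them lower MYC in many leukaemias.

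Total counts ran from 34023178 to 35962605 in panobinostat and 31989622 to 34704965 in vehicle libraries. Vehicle library 1 stood apart from its group over all genes, with a Pearson r across genes of 0.942 and 0.941 with the other vehicle libraries and 0.954 to 0.984 with the panobinostat libraries. Panobinostat library 1 also stood apart, with an r of 0.971 and 0.963 with the other panobinostat libraries, which had 0.987 with each other, and 0.950 to 0.954 with the vehicle libraries. Values without vehicle library 1, and without both libraries numbered 1, are given beside those from all libraries. Both settings drop libraries that stood apart in these same data, and the latter leaves 2 against 2 libraries. Their p-values are given as a description. Ifnar1, which both groups are labelled as lacking, was counted at 35.7 to 46.4 CPM in panobinostat and 36.9 to 48.0 CPM in vehicle libraries, and since reads outside a deleted stretch can remain, gene counts do not check that label. The 6 genes listed for the leukaemia cells (Kit, Cd34, Runx1t1, Runx1, Nras and Ifnar1), 5 of them with higher estimates, summed to 1236 to 1745 CPM in panobinostat and 1116 to 1240 CPM in vehicle libraries. Runx1, the AML1 gene, separated the groups upward, at 558, 377 and 367 CPM in panobinostat and 351, 262 and 264 CPM in vehicle libraries, with an unadjusted p of 0.0340 and an adjusted p of 0.998 in edgeR's test. Reads from the AML1 part of the fusion oncogene may be counted as Runx1, and their share was not tested. The progenitor marker Cd34 stood at 1.88 to 6.09 CPM in panobinostat and 0.348 to 4.20 CPM in vehicle libraries, while Kit, a receptor of progenitors and mast cells, was at 172 to 241 CPM in panobinostat and 121 to 266 CPM in vehicle libraries. H1f0, a linker histone gene known to respond to deacetylase inhibition, stood at 218, 291 and 311 CPM in panobinostat and 281, 191 and 170.0 CPM in vehicle libraries, and the groups overlapped. The log2 fold change of H1f0 was 0.35 with all libraries, 0.59 without vehicle library 1 (adjusted p 0.145 in edgeR's test) and 0.73 without both libraries numbered 1 (adjusted p 0.00684).

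All 9 genes were well expressed, with 1381 to 15082 counts in a library. Levels between genes were set side by side as CPM (read counts scaled to a common library size) per kilobase of annotated exon. Brd2 stood highest, at 74.4 ± 1.32 CPM per kb in panobinostat and 80.0 ± 7.51 in vehicle libraries (SD, n = 3 each). Kat2a at 44.4 ± 2.04 CPM per kb in panobinostat and 39.4 ± 2.27 in vehicle libraries, and Kat7 at 39.97 ± 0.676 in panobinostat and 38.8 ± 5.09 in vehicle libraries, came next, and their ranges over the 6 libraries overlapped. Kat5, Kat6a, Brd3 and Ep300 formed a middle group at 15.7 to 27.8 CPM per kb over all libraries, in which each neighbour's range overlapped the next. Kat2b stood at 8.98 ± 0.703 CPM per kb in panobinostat and 10.7 ± 0.945 in vehicle libraries, and Crebbp lowest, at 5.26 ± 0.438 in panobinostat and 5.42 ± 0.328 in vehicle libraries. Brd2, the pair of Kat2a and Kat7, the middle group, Kat2b and Crebbp did not overlap each other in any library. With the longest coding transcript as the length, Kat6a and Brd3 changed places and the rest of the order was the same.

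**Figure D1:**
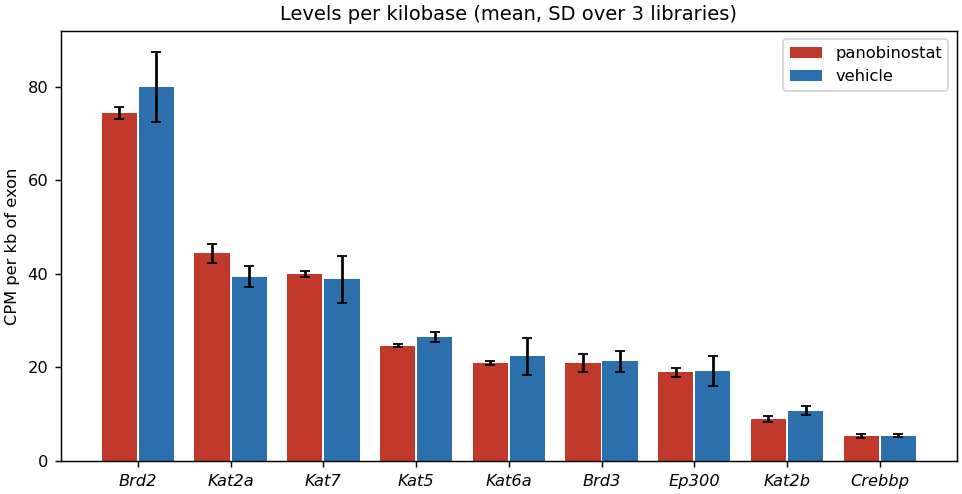
Mean CPM per kilobase of exon for each gene, with error bars of 1 SD over 3 libraries, in panobinostat (red, left) and vehicle (blue, right) libraries. Brd2 is highest, at 74.4 in panobinostat and 80.0 in vehicle libraries, and Crebbp lowest, at 5.26 in panobinostat and 5.42 in vehicle libraries.

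None of the 9 genes passed the test. In edgeR's quasi-likelihood test 0 of 9 genes were called at an adjusted p under 0.05, against 0% of all tested genes, and each had an adjusted p of 0.998. At an unadjusted p under 0.05 the count was 0 of 9, against 301 genes or 2.28% of all tested. Limma-voom called 0 genes of the table and DESeq2 called 9, none of them among the 9 described. Estimates were higher with panobinostat for 2 genes and lower for 7, with a median log2 fold change of -0.04, against 0.00090 over all tested genes. The 95% interval of each of the 9 log2 fold changes included 0, and the bound farthest from 0 was -0.52, for Kat2b. That bound is a 1.44-fold difference, and no interval of the 9 genes reached farther in either direction. These are bulk libraries, in which fewer cells of a type and less RNA per cell cannot be told apart.

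**Figure D2:**
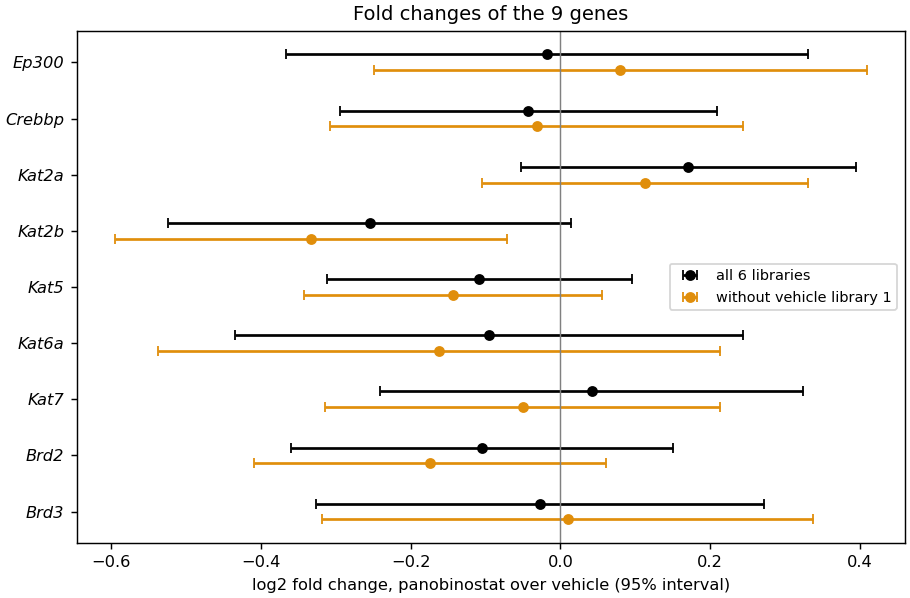
Log2 fold change of each gene, panobinostat over vehicle, with its 95% interval, from all 6 libraries (black) and without vehicle library 1 (orange). With all libraries every interval crosses 0, and without vehicle library 1 that of Kat2b runs from -0.60 to -0.07.

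Ep300 and Crebbp, the p300 and CBP coactivators, had estimates close to 0. Ep300 (Entrez gene 328572, chromosome 15, 81586209 to 81652077, GRCm38) stood at 171, 189 and 185 CPM in panobinostat libraries 1, 2 and 3, and at 212, 150.1 and 191 CPM in vehicle libraries 1, 2 and 3. The vehicle libraries held both the highest and the lowest value, and the panobinostat libraries lay between them. Its log2 fold change was -0.02 (SE 0.144, 95% interval -0.37 to 0.33). Crebbp (Entrez gene 12914, chromosome 16, 4081334 to 4213957) stood at 62.1, 55.6 and 52.9 CPM in panobinostat and 60.5, 54.5 and 60.8 CPM in vehicle libraries. Panobinostat libraries 1 and 3 were its highest and lowest, so the groups overlapped throughout, and its log2 fold change was -0.04 (SE 0.104, interval -0.29 to 0.21).

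Kat2a and Kat2b, the GCN5 and PCAF paralogs, had the largest estimates of the 9 genes, and in opposite directions. Kat2a (Entrez gene 14534, chromosome 11, 100704746 to 100712485, GRCm38) stood at 136, 141 and 129 CPM in panobinostat and 112, 122 and 126 CPM in vehicle libraries. Each panobinostat library was above each vehicle library, though by only a few CPM between panobinostat library 3 and vehicle library 3. Its log2 fold change was 0.17 (SE 0.0930, 95% interval -0.05 to 0.40), with an unadjusted p of 0.113 and an adjusted p of 0.998 in edgeR's test. Kat2b (Entrez gene 18519, chromosome 17, 53566774 to 53672721) stood at 45.4, 39.0 and 40.95 CPM in panobinostat and 45.2, 50.5 and 53.9 CPM in vehicle libraries. Libraries 1 of both groups met at the same level, and the other panobinostat libraries were below the other vehicle libraries. Its log2 fold change was -0.25 (SE 0.112, interval -0.52 to 0.01), with an unadjusted p of 0.0600 and an adjusted p of 0.998 in edgeR's test.

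Since a ratio within a library does not depend on library scaling, 4 ratios were also compared. Kat2a over Kat2b was 2.99, 3.62 and 3.14 in panobinostat and 2.49, 2.42 and 2.33 in vehicle libraries, so the groups did not overlap. The mean log2 ratio was higher by 0.43 with panobinostat, a 1.34-fold higher ratio. A two-sided exact permutation test gave p = 0.1, the smallest it allows with 3 against 3 libraries, or 0.4 adjusted over the 4 ratios. That test therefore cannot place this difference past 0.05. The difference ran from 0.35 to 0.48 with each library left out in turn, and was 0.51 without both libraries numbered 1. Ep300 over Crebbp was 2.76, 3.39 and 3.51 in panobinostat and 3.50, 2.75 and 3.14 in vehicle libraries (exact permutation p = 0.7). Brd2 over Brd3 was 3.61, 3.02 and 2.91 in panobinostat and 2.87, 3.70 and 3.49 in vehicle libraries (exact permutation p = 0.8). Kat6a over Kat7 was 1.35, 1.31 and 1.30 in panobinostat and 1.51, 1.31 and 1.527 in vehicle libraries (exact permutation p = 0.3). These last 3 ratios overlapped between the groups.

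**Figure D3:**
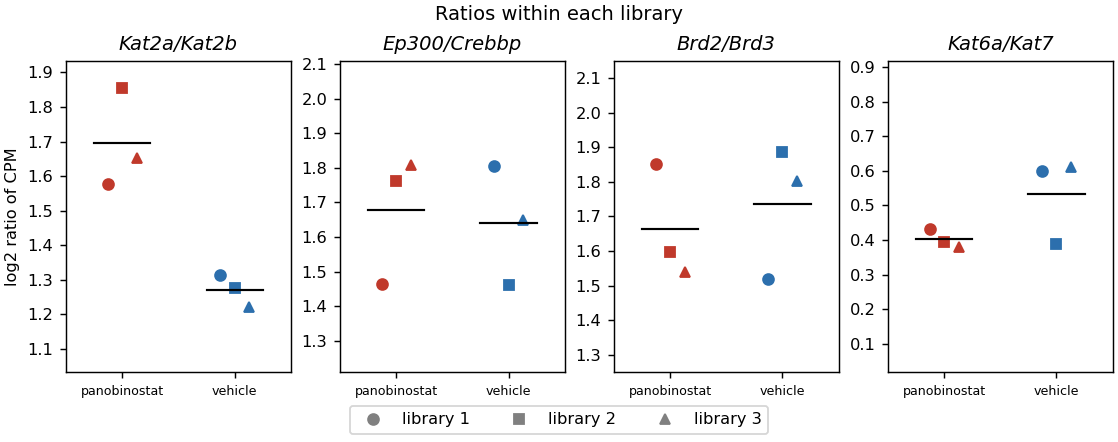
Log2 ratio of the CPM of paired genes in each library, panobinostat (red, left) and vehicle (blue, right), with marks for library number and a line at the mean of 3; each panel spans the same height, and its axis does not start at 0. The groups separate for Kat2a over Kat2b, where ratios are 2.99 to 3.62 in panobinostat and 2.33 to 2.49 in vehicle libraries, and overlap in the other panels.

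The sequence before the first annotated start of Kat2a and Kat2b is shown because this pair gave that separation. Both stretches are from RefSeq's GRCm38.p6 and read 5′ to 3′ on the gene's strand, with CpG dinucleotides in capitals. They end at the outermost start that RefSeq or GENCODE annotates. Kat2a (chr11:100712486-100712717, minus strand) has 8 CpG dinucleotides in 232 bases, most of them close to the start.
Kat2a: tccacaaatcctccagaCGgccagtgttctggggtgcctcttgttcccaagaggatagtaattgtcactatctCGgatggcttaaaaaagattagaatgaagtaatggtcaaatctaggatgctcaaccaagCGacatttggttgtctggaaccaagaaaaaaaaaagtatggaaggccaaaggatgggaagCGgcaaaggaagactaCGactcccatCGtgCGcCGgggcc
Kat2b: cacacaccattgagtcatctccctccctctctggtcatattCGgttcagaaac
The Kat2b stretch (chr17:53566721-53566773, plus strand) is the first 53 bases of its window and has 1 CpG dinucleotide.

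In windows of 250 bases before RefSeq starts, 5 motifs were searched on both strands. Windows were found for 8 of the 9 genes, 12 in all, and none for Kat6a. The GC box GGGCGG, found in 32.7% of all 32851 windows, was present in windows of Ep300, Crebbp, Kat5, Brd2 and Brd3. The CCAAT box CCAAT (33.8% of windows) was present for Kat2b, Kat5 and Kat7. The E-box CACGTG (6.02%) was present for Kat5 and the ETS core CCGGAAG (6.91%) for Brd2, while the CRE TGACGTCA (1.55%) was in none of the 12 windows. The Kat2a window held none of these letters. CpG dinucleotides numbered 11 for Kat2a and 6 and 5 for the Kat2b windows, against a median of 6 over all windows. They numbered 25 for Ep300, 44 for Crebbp, 15 and 24 for Kat5, 8 for Kat7, 27, 12 and 18 for Brd2 and 37 for Brd3. The windows of Crebbp, Kat5 and Brd3, and the later windows of Kat2b and Brd2, lie inside the gene's annotated span. Those counts are therefore not all from sequence before the gene. The shares are per window, and Kat2b, Kat5 and Brd2 have more windows than the other genes.

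Among the MYST genes, Kat5, the catalytic subunit of the TIP60 complex, separated the groups by a narrow margin. Kat5 (Entrez gene 81601, chromosome 19, 5603014 to 5611556, GRCm38) stood at 55.7, 56.4 and 54.7 CPM in panobinostat and 58.0, 62.6 and 59.1 CPM in vehicle libraries. Each panobinostat library was below each vehicle library, with a log2 fold change of -0.11 (SE 0.0843, 95% interval -0.31 to 0.09) and an adjusted p of 0.998 in edgeR's test. Exons of Rnaseh2c, a ribonuclease H subunit gene on the opposite strand, share 426 bases or 18.9% of Kat5's exons, and the strand setting of the counting is not given. Rnaseh2c stood at 32.7, 37.7 and 30.8 CPM in panobinostat and 22.9, 54.6 and 47.7 CPM in vehicle libraries. It was highest in vehicle library 2, as Kat5 was, but lowest in vehicle library 1, where Kat5 was above each panobinostat library. The part of Rnaseh2c in the Kat5 counts was not tested.

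Kat6a, the MOZ acetyltransferase (Entrez gene 244349, chromosome 8, 22859442 to 22943259), stood at 193, 194 and 188 CPM in panobinostat and 189, 179 and 246 CPM in vehicle libraries. The panobinostat libraries were nearly level, and vehicle library 3 alone stood well above the rest. Its log2 fold change was -0.10 (SE 0.141, interval -0.43 to 0.24), and 0.06 without vehicle library 3. Kat7, the HBO1 acetyltransferase (Entrez gene 217127, chromosome 11, 95271853 to 95310246), stood at 143, 148 and 144 CPM in panobinostat and 125, 136 and 161 CPM in vehicle libraries. Vehicle libraries 1 and 3 were its lowest and highest, and its log2 fold change was 0.04 (SE 0.117, interval -0.24 to 0.32).

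The BET genes differed between the group means by less than the SD of the vehicle libraries. Brd2 (Entrez gene 14312, chromosome 17, 34112019 to 34122814) stood at 375, 369 and 362 CPM in panobinostat and 365, 387 and 437 CPM in vehicle libraries. Vehicle library 3 was again the highest, and vehicle library 1 lay among the panobinostat libraries. Its log2 fold change was -0.10 (SE 0.106, interval -0.36 to 0.15), and -0.03 without vehicle library 3. Brd3 (Entrez gene 67382, chromosome 2, 27445576 to 27507657) stood at 104, 122 and 125 CPM in panobinostat and 127, 105 and 125 CPM in vehicle libraries. Both groups held a library near the lowest value, and its log2 fold change was -0.03 (SE 0.124, interval -0.33 to 0.27).

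**Figure D4:**
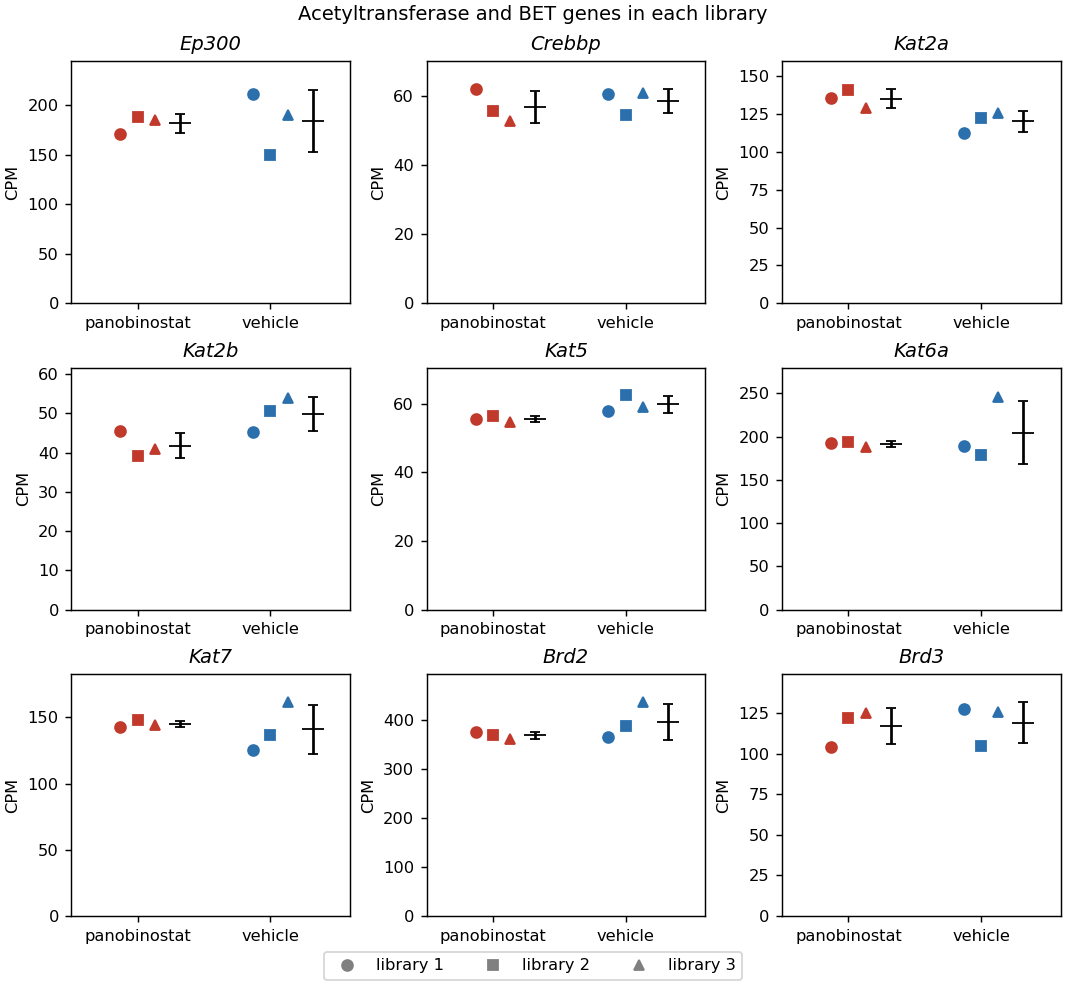
CPM of each gene in the panobinostat (red, left) and vehicle (blue, right) libraries, with marks for library number and, beside them, the mean with 1 SD (n = 3); all axes start at 0. Groups separate for Kat2a and Kat5 and overlap for the other 7 genes, and vehicle library 3 is highest for Kat2b, Kat6a, Kat7 and Brd2.

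Groups did not overlap for 2 of the 9 genes, 22.2%, against 981 genes or 7.43% of all tested. They were Kat2a, higher with panobinostat, and Kat5, lower. No member changed the sign of its estimate when libraries were scaled by RLE factors, by library size alone or by upper-quartile factors. These scalings could move the estimates only a little, since the factors of the main fit ran from 0.990 to 1.02. Leaving out single libraries did change the sign for Ep300, Crebbp, Kat6a, Kat7 and Brd3.

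The 9 genes varied little from library to library. The SD of log2 CPM over the 6 libraries ran from 0.0709 for Kat5 to 0.176 for Kat2b, with a median of 0.122, and was below the median over all tested genes (0.232) in 9 of 9. Over the 5259 tested genes with a mean CPM of at least that of Kat2b, the lowest of the 9 by CPM, the median was 0.166, and 7 of the 9 lay below it, with Ep300 at 0.167 and Kat2b at 0.176 above. Kat5 stood at percentile 3.24 and Kat2b at percentile 36.1 of all tested genes. The highest library exceeded the lowest by 1.15-fold for Kat5 and by 1.41-fold for Ep300. In 8 of 9 genes, Crebbp being the exception, vehicle libraries spread more than panobinostat libraries on the log2 scale, against 64% of 13069 tested genes with a count in every library.

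**Figure D5:**
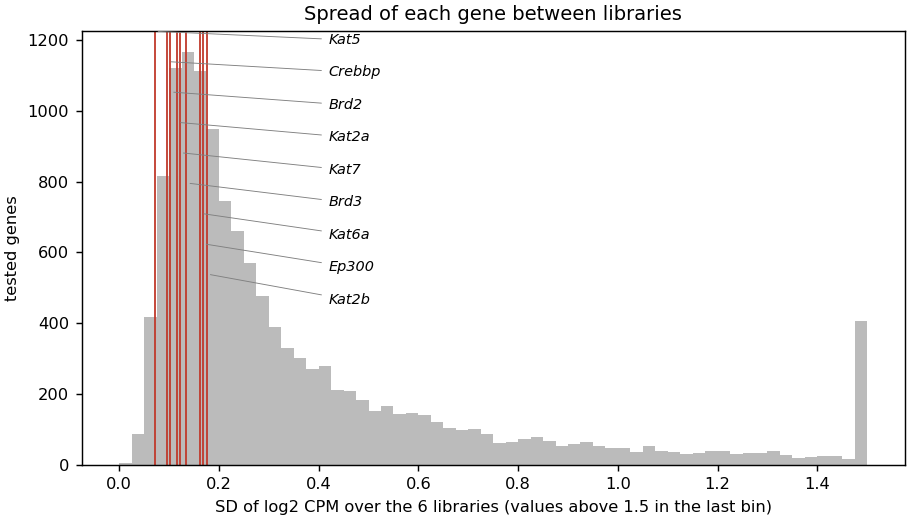
Histogram of the SD of log2 CPM over the 6 libraries for the 13207 tested genes, with red lines at the 9 genes. The lines run from 0.0709 (Kat5) to 0.176 (Kat2b), all below the median of 0.232.

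Vehicle library 3 stood high for most of the 9 genes. It was the highest library for 4 of the 9 genes and stood above the gene's own 6-library mean for 8 of 9, against 3 or 4 of 9 in the other libraries. The summed level of the 9 genes was 1285, 1314 and 1281 CPM in panobinostat and 1294, 1247 and 1460 CPM in vehicle libraries. The groups overlapped in this sum (n = 3 libraries each), which is given as a description. Without vehicle library 3 the median log2 fold change of the 9 genes was 0.01, with 5 estimates above 0 and 4 below. Across the 6 libraries, the members most alike in log2 CPM among 36 pairs were Ep300 with Brd3 (Pearson r of 0.87) and Kat6a with Brd2 (0.85), and the least alike were Ep300 with Kat5 (-0.48). All such values share the same 6 libraries and are given as a description.

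Without vehicle library 1 edgeR's test called 324 genes, 2.42% of those tested, and 0 of the 9. Kat2b then had a log2 fold change of -0.33 (SE 0.106) and an adjusted p of 0.166. Without both libraries numbered 1 it called 1590 genes, 12% of those tested, and 1 of the 9 (11.1%), namely Kat2b, lower at -0.40 (SE 0.0968) with an adjusted p of 0.0489. The libraries left out are those in which Kat2b met between the groups, so its difference had to widen. Kat2a, one of the separated genes, had a smaller estimate in both settings, at 0.11 without vehicle library 1 (adjusted p 0.527 in edgeR's test) against 0.17 with all libraries. Ep300 at 0.08, Kat7 at -0.05 and Brd3 at 0.01 took the opposite sign without vehicle library 1, and Crebbp stood at -0.03. Kat6a, Brd2 and Kat5 had estimates of -0.16, -0.17 and -0.14 without it, with adjusted p of 0.607, 0.369 and 0.380 in edgeR's test.

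Markers of other blood cell types also differed between libraries. Whether their reads came from other cells or from the leukaemia cells was not tested. The 12 B cell and plasma cell markers, all with lower estimates, summed to 10.03 to 66.2 CPM in panobinostat and 54.4 to 145.0 CPM in vehicle libraries, and the 10 T cell markers, all with lower estimates, to 2.168 to 11.6 CPM in panobinostat and 10.3 to 13.5 CPM in vehicle libraries. The 9 tested mast cell and basophil markers, all with higher estimates, summed to 1725 to 3537 CPM in panobinostat, highest in library 1, and 1511 to 1776 CPM in vehicle libraries. The 9 tested erythroid markers, 8 of them with lower estimates, summed to 2514 to 21959 CPM in panobinostat and 7188 to 22770 CPM in vehicle libraries. The 5 tested megakaryocyte markers summed to 69.5 to 159 CPM in panobinostat and 50.8 to 244 CPM in vehicle libraries. Granulocyte and monocyte markers, 7 of 10 tested and all 7 with lower estimates, summed to 6.25 to 7.77 CPM in panobinostat and 8.70 to 11.3 CPM in vehicle libraries. At least 1 library had 0 counts for Pax5, Cd8b1, Cd5, Mcpt8, Gp1bb, Elane and Ly6g. The part of these markers in the values of the 9 genes was not tested.

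The genes that work with these enzymes and readers were taken as 8 lists of 129 genes, of which 128 were tested. None passed the test, and 58 had higher and 70 lower estimates with panobinostat, with a median log2 fold change of -0.02. The groups did not overlap for 8 of 128 (6.25%), against 7.43% of all tested genes. Without vehicle library 1, 3 of 128 (2.34%) were called, and without both libraries numbered 1, 14 of 128 (10.9%), 7 higher and 7 lower, close to the shares over all genes. The 7 lower include Brpf3 at a log2 fold change of -1.29 (adjusted p 0.00105 in edgeR's test) and Kat6b at -0.90 (0.00624). They also include Mpc1 at -0.48 (0.0200), Dr1 at -0.41 (0.0280) and Crat at -0.60 (0.0362), and all these are given below with all libraries. The 7 higher include Ncoa1 at 1.91 (0.00831), Ncoa3 at 1.09 (0.00217) and Sp110 at 0.89 (0.00719), which are given under other observations. Among 16 other lysine acetyltransferases, 8 estimates were higher and 8 lower, with a median of 0.02. Elp3, the catalytic subunit of Elongator, separated the groups upward at 73.7, 70.3 and 72.1 CPM in panobinostat and 64.9, 68.1 and 61.5 CPM in vehicle libraries (log2 fold change 0.15, SE 0.0874). The next smallest p-values of that list were those of Nat10, an RNA acetyltransferase, at a log2 fold change of 0.17, and Esco1, a cohesin acetyltransferase, at -0.15. Kat6b, the paralog of Kat6a, stood at 97.2, 29.6 and 26.0 CPM in panobinostat and 29.8, 54.0 and 49.0 CPM in vehicle libraries, with panobinostat library 1 far above the rest, and its log2 fold change was 0.20 with that library and -0.67 without it. Kat8, the MOF acetyltransferase, stood at -0.21 (SE 0.165) and Hat1, which acetylates newly made histone H4, at -0.09 (SE 0.218) on the log2 fold change scale.

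Of 31 tested genes for other bromodomain proteins, 16 estimates were higher and 15 lower, and the median was 0.00011. Brpf3, a scaffold of HBO1 complexes, had the smallest p among them. It stood at 31.3, 63.4 and 63.8 CPM in panobinostat and 48.6, 158 and 152 CPM in vehicle libraries, so vehicle library 1 lay inside the panobinostat range (log2 fold change -1.18, SE 0.498, edgeR adjusted p 0.998). Zmynd11, a reader of histone H3.3 methylation, was barely expressed, at 0.111, 0.309 and 1.22 CPM in panobinostat and 1.26, 1.5203 and 1.25 CPM in vehicle libraries. Cecr2, a remodelling complex subunit, stood at 0.528, 11.6 and 4.63 CPM in panobinostat and 1.86, 1.89 and 2.73 CPM in vehicle libraries, with the panobinostat libraries on both sides of the vehicle range. Among 9 partners of Kat6a and Kat7, 2 estimates were higher and 7 lower, with a median of -0.11. Jade2, another HBO1 scaffold, stood at 29.6, 19.2 and 18.8 CPM in panobinostat and 23.1, 13.998 and 14.9 CPM in vehicle libraries, with each library numbered 1 the highest of its group. Brd1, a scaffold of MOZ and HBO1 complexes, had a log2 fold change of -0.14.

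Among 23 SAGA and ATAC subunits, 9 estimates were higher and 14 lower, with a median of -0.04. Tada2a, the adaptor of the ATAC complex, separated the groups upward at 25.8, 28.7 and 27.6 CPM in panobinostat and 21.5, 23.6 and 23.9 CPM in vehicle libraries (log2 fold change 0.25, SE 0.107). Dr1, a subunit of ATAC and of the NC2 repressor, stood at 164, 152 and 156 CPM in panobinostat and 157, 199 and 207 CPM in vehicle libraries, with vehicle library 1 inside the panobinostat range. Tada1, a SAGA subunit, had a log2 fold change of -0.14. Among 17 TIP60 subunits, 5 estimates were higher and 12 lower, with a median of -0.04. Epc1, a scaffold of that complex, separated the groups downward at 47.9, 56.1 and 56.5 CPM in panobinostat and 57.7, 65.3 and 64.8 CPM in vehicle libraries (log2 fold change -0.23, SE 0.1099). The subunits Mrgbp and Ing3 had log2 fold changes of 0.14 and -0.23. None of these passed edgeR's test, each with an adjusted p of 0.998.

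Among 14 BET partners and elongation factors, 6 estimates were higher and 8 lower, with a median of -0.03. Hexim1, the inhibitor of the elongation kinase P-TEFb, was lower in each panobinostat library, at 52.4, 53.6 and 59.0 CPM, than in each vehicle library, at 62.4, 62.0 and 66.2 CPM. Its log2 fold change was -0.21 (SE 0.0928) and its adjusted p 0.998 in edgeR's test. Cdk9, the P-TEFb kinase, stood at 110.0, 110.2 and 98.6 CPM in panobinostat and 101, 108 and 97.98 CPM in vehicle libraries, with overlapping groups. Ccnt2, a cyclin of P-TEFb, and Nsd3, a BET-binding methyltransferase, had log2 fold changes of -0.10 and -0.09. Among 16 adaptors and partners of p300 and CBP, 12 estimates were higher and 4 lower, with a median of 0.14. Myb, a transcription factor that recruits p300, stood at 588, 519 and 525 CPM in panobinostat and 533, 402 and 546 CPM in vehicle libraries. Med15, a Mediator subunit, separated the groups upward at 103, 108 and 105 CPM in panobinostat and 96.4, 91.7 and 99.1 CPM in vehicle libraries (log2 fold change 0.14, SE 0.0843). Hif1a, the hypoxia factor that binds p300, stood at 165, 80.0 and 77.3 CPM in panobinostat and 79.1, 76.4 and 79.5 CPM in vehicle libraries, with panobinostat library 1 far above the rest. Crtc1, a CREB coactivator, had a log2 fold change of 0.24.

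Of 11 genes for acetyl-CoA supply, 3 estimates were higher and 8 lower, with a median of -0.09. Mpc1, a subunit of the mitochondrial pyruvate carrier, had the smallest p of all 128 genes. It stood at 49.6, 45.7 and 45.8 CPM in panobinostat and 51.0, 65.0 and 61.3 CPM in vehicle libraries, each panobinostat library below each vehicle library (log2 fold change -0.33, SE 0.119, unadjusted p 0.0297, edgeR adjusted p 0.998). Crat, carnitine acetyltransferase, stood at 33.7, 39.2 and 40.4 CPM in panobinostat and 39.5, 67.6 and 52.3 CPM in vehicle libraries, with vehicle library 1 inside the panobinostat range. Mpc2, the other carrier subunit, had a log2 fold change of -0.26.

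By pattern over the 6 libraries, the list gene most like each member in log2 CPM was Ash1l for Ep300 (Pearson r of 0.98), Atxn7 for Crebbp (0.90) and Tada2a for Kat2a (0.91). For Kat2b it was Dr1 (0.93), and for Kat5 it was Mpc1 (0.92). Ep400 was the most alike for both Kat6a (0.90) and Kat7 (0.94), Trim33 for Brd2 (0.98) and Brpf1 for Brd3 (0.87). Over 12728 named genes of the whole table, those most like Kat2b, the member with the widest spread, were Cdc40, Prepl and Tiam2, each with an r of 0.99. Those most like Ep300 were Tgfbrap1, Trim56 and Megf11, at 0.98 to 0.99. These values rest on the same 6 libraries and are given as a description.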

How the data were processed

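The deposited table holds raw read counts per Entrez gene for 6 libraries, and no normalization by the authors was seen in its whole-number values. The submitters' processing notes name HISAT2 2.1.0 and Subread 2.0.0 with featureCounts, together with cutadapt 2.1, FastQC 0.11.6 and limma, on mm10, with no options, annotation or strand setting in the sources used here. Column names give the group and a number that is not tied to the labels' replicate numbers, so libraries carry group and column number.

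Identifiers were matched to RefSeq GRCm38.p6, with a symbol for 25275 of 27179. Genes kept by filterByExpr (minimum count 10) were scaled by TMM and tested with edgeR 4.0.16 (R 4.3.3) by the robust quasi-likelihood F-test, two-sided, with Benjamini-Hochberg adjustment over all 13207 genes. Intervals of 95% used the standard error implied by the F statistic. Spread and likeness used log2 CPM with a prior count of 2. Exon lengths, overlaps and 50-base words shared between transcripts came from GENCODE M21. Of each member's words, at most 9.83% also lay in another gene (Kat5, with Rnaseh2c), 7.81% for Brd2 and 7.28% for Kat2b (all with its pseudogene), and 0 in another member. These are shares of words and not of reads, and the share of reads affected was not tested. The fitting was tested on simulated data.

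The 9 genes, the lists and the tests were chosen with earlier results of these data known. Named besides them were the 3 genes of smallest p in each list, and Kat6b, Kat8, Hat1, Hexim1, Cdk9, Myb and H1f0. Rnaseh2c and the marker and likeness genes are named for the reasons given with them. Alternatives were other scalings and filters, DESeq2 1.42.0, limma-voom 3.58.1, no robust option, a replicate block, an adjusted p under 0.01 and libraries left out. The longest transcript as gene length was chosen after seeing the data.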

Additional observations from a re-analysis of the deposited data

How the results depend on the processing

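Over the whole table DESeq2 called 9 genes, leaving out each library in turn gave 0 to 324, and leaving out both libraries numbered 1 gave 1590, against 0 with all libraries. Of the 9 members 0 were called in each alternative but the last, where 1 was. Their median log2 fold change ran from -0.11 to 0.011 with each library left out, lowest without vehicle library 2 and highest without vehicle library 3. The log2 ratio of Ep300 to Crebbp ran from -0.049 to 0.15 and that of Brd2 to Brd3 from -0.18 to 0.0011 in the same settings, so both changed sign. With each library left out Ep300 ran from -0.14 to 0.080, Brd3 from -0.11 to 0.052, Crebbp from -0.11 to 0.0030, Kat6a from -0.18 to 0.060 and Kat7 from -0.050 to 0.15. Without both libraries numbered 1 Ep300 stood at 0.12, Brd3 at 0.089 and Kat7 at -0.038. Among other genes, with each library left out, Hat1 ran from -0.32 to 0.050, Kat6b from -0.67 to 0.51, Ncoa1 from -0.59 to 1.82 and Ncoa3 from -0.0051 to 1.11. Kat6b stood at -0.026 with limma-voom, -0.075 with the replicate block and -0.90 without both libraries numbered 1, and Ncoa1 at 0.75, 0.80 and 1.91. In all, 631 of 655 gene values under alternatives kept their sign, and Kat2a, Kat2b, Kat5 and Brd2 kept it in all 16 alternatives each. These counts include alternatives that could hardly change a sign, since leaving off the robust option left the estimates as they were. All changes of sign came with libraries left out, limma-voom or the replicate block. The causes of these changes were not tested.

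Deviations from the group means correlated at -0.14, 0.07 and -0.20 for libraries sharing a number, and 1 of 3 panobinostat libraries correlated best with its own number, so the number was not taken as a pairing. With the replicate block edgeR called 0 genes and 0 members, the median log2 fold change of the members was -0.04, and the Kat2a to Kat2b log2 ratio differed by 0.43 (sign-flip exact p = 0.25, the smallest for 3 pairs). With all 6 libraries, 3 per group, and no block, the intervals of these 9 genes reach up to 1.44-fold, so smaller changes may be present. The interval of Kat2b reached a log2 fold change of -0.60 without vehicle library 1 and -0.63 without both libraries numbered 1.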

Other observations

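Outside the 9 genes, 3 genes of the lists were called without vehicle library 1, and they are named after their values were seen. Ncoa3, a steroid receptor coactivator that binds p300 and CBP, stood at 187, 186 and 169 CPM in panobinostat and 280, 83.7 and 82.3 CPM in vehicle libraries 1, 2 and 3. Ncoa1, its relative, stood at 6.87, 6.72 and 9.84 CPM in panobinostat and 21.4, 2.24 and 2.15 CPM in vehicle libraries. Sp110, a bromodomain protein of nuclear bodies, stood at 23.2, 27.0 and 25.9 CPM in panobinostat and 34.8, 15.1 and 13.3 CPM in vehicle libraries. In all 3 genes vehicle library 1 was the highest of the 6 libraries and vehicle libraries 2 and 3 the lowest. Without vehicle library 1 their log2 fold changes were 1.11, 1.82 and 0.82, with adjusted p of 0.0173, 0.0379 and 0.0422 in edgeR's test, and with all libraries 0.28, -0.14 and 0.27, each with an adjusted p of 0.998.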
